A study of Mus musculus with 6 samples.

Results

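The genes described here are the amino acid and creatine transporters of 6 solute carrier families, Slc1a, Slc6a, Slc7a, Slc36a, Slc38a and Slc43a, in immortalized mouse embryonic fibroblasts (MEFs). They were chosen by name: of 26231 genes in the expression table, 47 have a symbol made of a family name and a number, with no more than 1 letter after it. Among these 47 genes, 19 reached 1 RPKM (a read count divided by the length of the gene's exons and by the depth of the library, a unit inferred from the values) in at least 3 of the 6 libraries and were tested with 11067 genes in all, while 28 stayed under that level. The Slc1a family gave 3 tested genes of 7, Slc6a 3 of 16, Slc7a 4 of 9, Slc36a 2 of 3, Slc38a 6 of 9 and Slc43a 1 of 3. Slc7a11, the cystine carrier of the glutathione pathway, was left out by the rule and stood at 1.48, 1.11 and 0.890 RPKM in control replicates 1, 2 and 3 and at 1.48, 1.08 and 0.931 RPKM in the libraries labelled Nf2 KO. Slc7a6os, a neighbor of Slc7a6 on the opposite strand, encodes no carrier and was not counted.

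The fibroblasts came from Nf2 fl/fl embryos of FVB background at about 14 days of age by the labels, while the study's methods give an earlier day, and were immortalized with the large T antigen of SV40. They were then transduced with a lentivirus for Cre recombinase (MEF Nf2 KO) or with an empty vector (MEF WT (control)), so that the controls also carry the large T antigen and a lentiviral insertion, and each line stands for a single transduction as far as the methods state. The growth medium of both lines held 10% FBS and 1% nonessential amino acids, and RNA was taken after 24 h in medium free of serum. Each line has 3 libraries, replicate 1 with the mark A, replicate 2 with the mark B and replicate 3 with the mark 2018. What the marks stand for is not stated, and nothing says that the replicates were separate cultures, so p-values measure the spread between these libraries, which may be technical.

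Library depths inferred from the values ran from 13403439 to 72741099 reads, with the replicate 3 libraries of both lines the deepest. Nf2, the deleted gene, which encodes Merlin, stood at 14.3, 13.7 and 13.1 RPKM in the controls and at 15.4, 12.9 and 13.9 RPKM in the libraries labelled Nf2 KO (log2 fold change 0.0328, limma adjusted p = 0.987). The Nf2 value did not separate the lines, and a value over the whole gene need not fall when Cre removes part of it, so every direction below follows the labels. All 9 fibroblast markers listed were present in the controls, with a summed level of 1989 to 2781 RPKM there and of 1386 to 1946 RPKM under the Nf2 KO label, where 3 of the 9, Dcn included, passed as lower without the replicate block used below, against 1.06% of all genes in either direction, and 5 with it, against 4.54% of all genes as lower. Pdgfra, a growth factor receptor of fibroblasts, stood at 12.3, 5.22 and 11.7 RPKM in the controls and at 1.42, 0.657 and 0.962 RPKM under the Nf2 KO label. Dcn, which encodes the matrix protein decorin, reached 1 RPKM in the controls alone and so had to be lower, at 2.57, 1.60 and 4.01 RPKM against 0.133, 0.0266 and 0.112 RPKM. The part of this difference in the transporter values was not tested. Of the markers of 5 other cell classes, only Tubb3, Cd68, Kdr and Acta1 reached 1 RPKM in any library, and the highest summed level in a library was 8.27 RPKM for macrophages, 0.874 RPKM for epithelium, 4.45 RPKM for endothelium and 6.63 RPKM for skeletal muscle. These are bulk samples, in which fewer cells of a type and less RNA per cell cannot be told apart.

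Cells take up amino acids through carriers with overlapping substrates. Uniporters and sodium-coupled carriers load the cell, and exchangers such as the Slc7a5 protein then trade an internal amino acid such as glutamine for external leucine. Some Slc7a proteins, the light chains, reach the plasma membrane as pairs with the heavy chain encoded by Slc3a2. Creatine and taurine enter through Slc6a8 and Slc6a6 with sodium and chloride. In fibroblasts, uptake is known to respond to growth factors and to amino acid starvation, the latter through the transcription factor ATF4, and amino acids inside the cell are sensed by the kinase complex mTORC1.

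The fibroblasts held the 19 tested carriers at mean levels from 1.12 to 46.6 RPKM. By mean level over all 6 libraries, the order was Slc7a5 at 46.6 RPKM, Slc1a6 at 42.7 RPKM, Slc6a6 at 31.9 RPKM, Slc38a2 at 27.3 RPKM, Slc38a10 at 22.6 RPKM and Slc6a8 at 22.0 RPKM. Next came Slc43a3 at 16.8 RPKM, Slc7a6 at 12.1 RPKM, Slc1a4 at 9.61 RPKM, Slc38a4 at 9.16 RPKM, Slc7a1 at 8.57 RPKM and Slc1a5 at 7.63 RPKM. Lower still were Slc36a1 at 7.07 RPKM, Slc36a4 at 6.47 RPKM, Slc38a7 at 5.69 RPKM, Slc6a9 at 4.09 RPKM, Slc38a1 at 2.57 RPKM, Slc7a2 at 2.51 RPKM and Slc38a6 at 1.12 RPKM. The ranges over libraries of neighbors in this order overlapped throughout. The order differed between the lines, since in the controls Slc7a5 (38.3 RPKM) was followed by Slc6a8 (28.5 RPKM), Slc38a2 (28.2 RPKM) and Slc1a6 (26.5 RPKM). Under the Nf2 KO label Slc1a6 (58.9 RPKM) came first, then Slc7a5 (54.9 RPKM) and Slc6a6 (37.9 RPKM), with Slc6a8 (15.5 RPKM) in the seventh place. The summed level of all 47 genes was 262, 269 and 261 RPKM in the 3 controls and 311, 316 and 326 RPKM in the 3 libraries labelled Nf2 KO. The means were 263.8 ± 4.43 RPKM and 317.7 ± 7.52 RPKM (SD, n = 3 each), with no test since it is a score over the listed genes. The largest differences of the mean level (Nf2 KO label minus control) were 32.4 RPKM for Slc1a6, 16.7 RPKM for Slc7a5, 12.0 RPKM for Slc6a6 and -13.0 RPKM for Slc6a8.

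**Figure D1:**
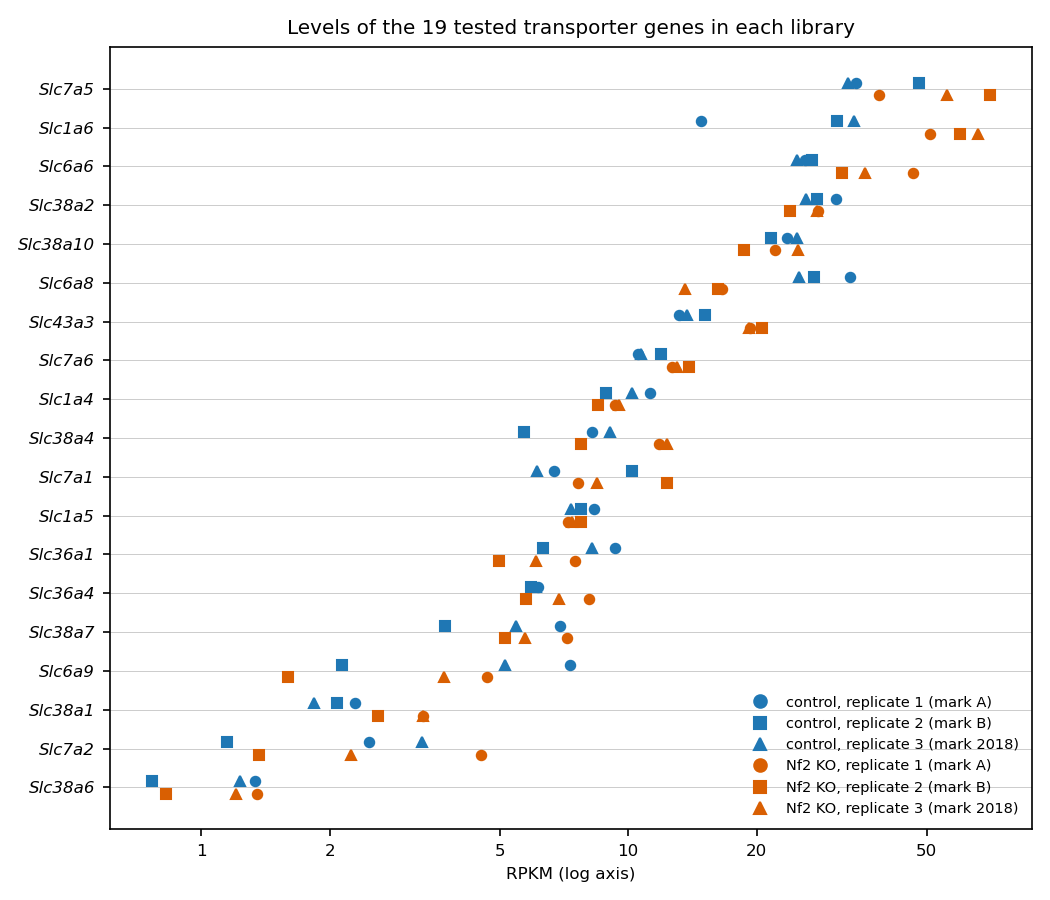
RPKM on a log axis of the 19 tested transporter genes, ordered by mean level, with a point for each library colored by line and shaped by replicate number. Slc6a8 lies at 13.6 to 16.6 RPKM under the Nf2 KO label and at 25.1 to 33.1 RPKM in the controls, Slc1a6 lies higher under the Nf2 KO label, and the replicate 2 libraries (squares) are lowest for Slc6a9 and Slc7a2.

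The comparison of the lines asked which carriers differ in RNA level between fibroblasts labelled Nf2 KO and their controls. Tested without a covariate, the creatine carrier Slc6a8 was the only transporter past the threshold of an adjusted p of 0.05, and it was lower under the Nf2 KO label. This is 1 of 19, against 1.06% of all 11067 genes (117 genes). The same-numbered libraries of both lines deviated together from their line means, so the replicate number was also used as a block. With this block 6 of 19 transporters passed, against 7.53% of all genes (833 genes). The glutamate carrier Slc1a6, Slc43a3 and the neutral carrier Slc38a4 were higher under the Nf2 KO label (3 of 19, against 2.99% of all genes). Slc6a8, the lysosomal carrier Slc36a1 and the glycine carrier Slc6a9 were lower (3 of 19, against 4.54% of all genes). Within each replicate number, 9 of 19 transporters were higher under the Nf2 KO label at all 3 numbers, as were 22.3% of all genes tested, and 4 of 19 were lower at all 3, as were 24.6% of all genes. The median log2 fold change was 0.16 over the 19 transporters and -0.0078 over all genes tested. The transporter median was -0.038 without control replicate 2, 0.046 without Nf2 KO replicate 1 and 0.063 without replicate 1 of both lines. The lines did not overlap for 6 of 19 transporters, namely Slc1a6, Slc38a1, Slc43a3, Slc6a6, Slc6a8 and Slc7a6, and for 15.1% of all genes tested.

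**Figure D2:**
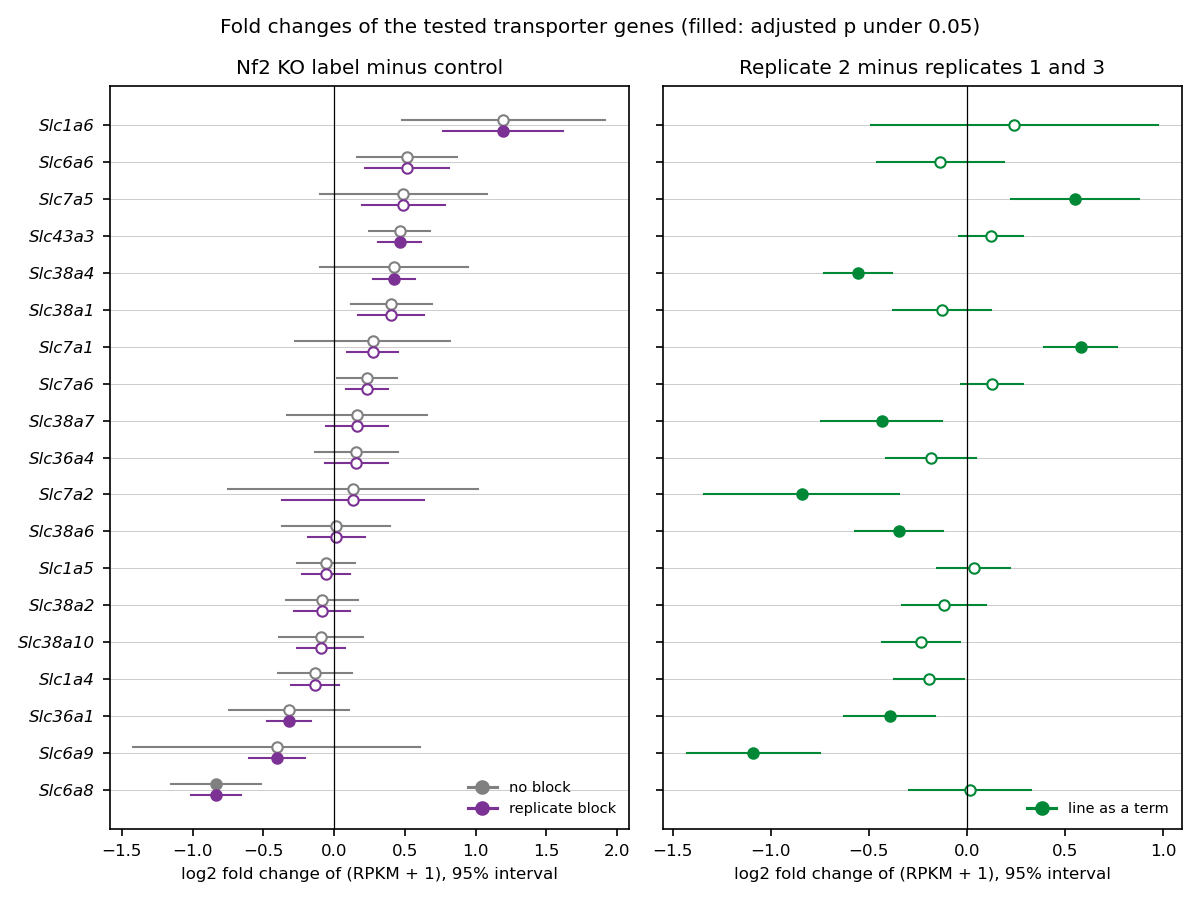
Log2 fold changes of RPKM + 1 with 95% intervals from limma for the 19 tested transporters, on the left for the Nf2 KO label minus control without (gray) and with (purple) the replicate block, on the right for replicate 2 minus replicates 1 and 3. Filled points have an adjusted p under 0.05, which holds on the left for Slc6a8 alone without the block and for 6 genes with it, and on the right for 8 genes.

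Among the sodium- and chloride-coupled Slc6a carriers, Slc6a8 (chrX:73673150-73682502, plus strand, GRCm38), which brings creatine into the cell, stood at 33.1, 27.3 and 25.1 RPKM in control replicates 1, 2 and 3 and at 16.6, 16.3 and 13.6 RPKM in Nf2 KO replicates 1, 2 and 3. Every library labelled Nf2 KO lay below every control, with means of 15.5 ± 1.64 and 28.5 ± 4.12 RPKM (SD, n = 3 each), a 1.84-fold lower level. The log2 fold change was -0.83 (SE 0.134, 95% interval -1.15 to -0.51, limma adjusted p = 0.0497), and with the replicate block the adjusted p was 0.00543. Within replicate numbers the log2 differences were -0.95, -0.71 and -0.84. The call without the block ended when any single library was left out, at adjusted p = 0.0709 to 0.189, and it also ended without replicate 1 or replicate 3 of both lines (adjusted p = 0.528 and 0.432), or when genes were filtered on a mean of 1 RPKM over all 6 libraries (adjusted p = 0.0522). With the block, it still passed when replicate 1, 2 or 3 of both lines was left out. Its share of the summed level of the 47 genes was 9.63% to 12.6% in the controls and 4.18% to 5.34% under the Nf2 KO label.

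Slc6a6, which imports taurine, stood at 25.9, 27.0 and 24.9 RPKM in the controls and at 46.4, 31.6 and 35.8 RPKM under the Nf2 KO label. The lines did not overlap, but the 3 libraries labelled Nf2 KO were spread more widely than the controls. The log2 fold change of 0.51 (SE 0.147, 95% interval 0.16 to 0.87) did not pass either without the block (adjusted p = 0.247) or with it (adjusted p = 0.0663). It passed without replicate 2 of both lines, at an adjusted p of 0.0475. Slc6a9, the glycine carrier GlyT1 (chr4:117834506-117875198, plus strand), stood at 7.31, 2.14 and 5.14 RPKM in the controls and at 4.67, 1.59 and 3.70 RPKM under the Nf2 KO label. The replicate 2 libraries were the lowest of their line and the lines overlapped, while within replicate numbers the log2 differences were -0.55, -0.27 and -0.39. It passed only with the block (log2 fold change -0.40, SE 0.0801, adjusted p = 0.0415, against 0.924 without it). The blocked call ended under quantile normalization (adjusted p = 0.0659) and without any one replicate number (0.0697 to 0.151). Of the exon bases of Slc6a9, 30.2% overlap genes on the opposite strand, most of them Ccdc24 at 0.113 to 0.390 RPKM, with B4galt2 at 7.82 to 9.80 RPKM overlapping in few bases, and whether the counting used strand is not stated, so the value is uncertain.

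The acidic amino acid carriers were represented by Slc1a6 (chr10:78780496-78814765, plus strand), the glutamate and aspartate carrier EAAT4, best known from cerebellar Purkinje neurons. It stood at 14.8, 30.9 and 33.8 RPKM in control replicates 1, 2 and 3 and at 50.9, 59.8 and 66.0 RPKM in Nf2 KO replicates 1, 2 and 3. Control replicate 1 was the lowest of the 6 libraries, and the lines did not overlap, with means of 26.5 ± 10.2 and 58.9 ± 7.58 RPKM (SD, n = 3 each), a 2.22-fold higher level under the Nf2 KO label. The log2 fold change was 1.20 (SE 0.301, 95% interval 0.48 to 1.92), which did not pass without the block (adjusted p = 0.183) and passed with it (adjusted p = 0.0194). Within replicate numbers the log2 differences were 1.71, 0.93 and 0.94. Without replicate 3 of both lines the blocked adjusted p was 0.0545. Its share of the summed level of the 47 genes was 5.67% to 13.0% in the controls and 16.4% to 20.3% under the Nf2 KO label. None of its 31-base stretches was shared with another gene. Of the 7 neuron and glia markers in the table, only Tubb3 reached 1 RPKM in any library, and the summed level of the list was 1.60 to 2.63 RPKM in the controls and 0.794 to 1.68 RPKM under the Nf2 KO label. Rbfox3, a marker of mature neurons, and Aqp4, a marker of astrocytes, were at 0 in 5 of 6 libraries each and at 0.0091 and 0.0026 RPKM in the remaining library. The other acidic carriers, Slc1a1, Slc1a2, Slc1a3 and Slc1a7, stayed under the filter.

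The stretch ahead of the RefSeq start of Slc1a6 is shown with that of Slc36a1. They were picked because both genes passed with the block, Slc1a6 as higher and Slc36a1 as lower, and hold the E-box CACGTG. This is a letter string read by MYC and the TFEB family, found here within 250 bases upstream of the start. The build is GRCm38.p6, both are on the plus strand, both stretches end at the base before the start, and capitals mark the E-box.
Slc1a6 (chr10:78780424-78780495): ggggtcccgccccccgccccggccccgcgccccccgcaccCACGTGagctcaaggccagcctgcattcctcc
Slc36a1 (chr11:55204269-55204339): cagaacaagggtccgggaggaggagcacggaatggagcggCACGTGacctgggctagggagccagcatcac
CACGTG reads the same on both strands and was found in 6.02% of all 32851 promoters of that table and in 7 of the 50 promoters of transporter genes (14%). GGAATG, the string of TEAD factors, searched on both strands, was found in 12.6% of all promoters and in 8 of 50 (16%), both of the stretches shown included. TGATGNAA, the amino acid response element string of ATF4, was found in 3.45% of all promoters and in 2 of 50 (4%), both of Slc7a7. The table held 32 of the 47 genes and lacked Slc6a8, Slc7a5, Slc6a6 and Slc43a3 among others, so these were not searched. Slc38a7, which did not pass for the line, also holds the E-box. The bases right after the RefSeq start of Slc36a1 were found in no annotated transcript of the gene (GENCODE vM21). A match is no more than a string of letters in this window.

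Slc1a4 and Slc1a5, exchangers of small neutral amino acids and glutamine, showed no call. Slc1a5, the glutamine carrier ASCT2, stood at 8.33, 7.76 and 7.34 RPKM in the controls and at 7.23, 7.77 and 7.37 RPKM under the Nf2 KO label. The lines overlapped, with a log2 fold change of -0.0577 (SE 0.0865, 95% interval -0.26 to 0.15, adjusted p = 0.958). For Slc1a4, at 11.3, 8.89 and 10.2 RPKM and 9.29, 8.48 and 9.53 RPKM, the interval was -0.39 to 0.12.

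Among the heavy-chain-bound Slc7a carriers, Slc7a5, the leucine carrier LAT1 (chr8:121881150-121907694, minus strand), stood at 34.1, 48.0 and 32.7 RPKM in the controls and at 38.7, 70.4 and 55.7 RPKM under the Nf2 KO label. Replicate 2 was the highest of each line, and Nf2 KO replicate 1 lay below control replicate 2, so that the lines overlapped. The log2 fold change was 0.49 (SE 0.246, 95% interval -0.10 to 1.08) with an adjusted p of 0.63 without the block and of 0.0719 with it, past the threshold in neither. With the block and without replicate 1 it passed, at an adjusted p of 0.0350. Slc3a2, the shared heavy chain, stood at 34.9, 44.0 and 34.0 RPKM in the controls and at 37.3, 47.9 and 44.7 RPKM under the Nf2 KO label (log2 fold change 0.20, SE 0.144, 95% interval -0.14 to 0.54, adjusted p = 0.821). The ratio of the Slc7a5 level to the Slc3a2 level was 0.978, 1.09 and 0.961 in the controls and 1.04, 1.47 and 1.25 under the Nf2 KO label. The ratios of the lines overlapped at Nf2 KO replicate 1. Slc7a6, a further light chain that exchanges cationic for neutral amino acids, stood at 10.5, 11.9 and 10.7 RPKM in the controls and at 12.7, 13.9 and 13.0 RPKM under the Nf2 KO label. The lines did not overlap, yet the log2 fold change of 0.23 had an adjusted p of 0.433 without the block and 0.0789 with it. The cationic carriers Slc7a1 and Slc7a2, which import arginine and lysine, overlapped between the lines and showed no call for the line (intervals -0.27 to 0.82 and -0.75 to 1.02). Slc7a1 was higher under the Nf2 KO label at all 3 replicate numbers. With the block its log2 fold change was 0.27 (95% interval 0.091 to 0.45, limma adjusted p = 0.0918). For Slc7a2, whose direction differed between replicate numbers, the blocked adjusted p was 0.736.

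Of the 6 tested sodium-coupled neutral carriers of the Slc38a family, 1 passed for the line, and with the block alone. Slc38a4 (chr15:96994820-97055956, minus strand), an imprinted gene for a carrier of neutral and cationic amino acids, stood at 8.25, 5.69 and 9.07 RPKM in the controls and at 11.8, 7.74 and 12.4 RPKM under the Nf2 KO label. In both lines replicate 2 was the lowest, the lines overlapped, and the log2 differences within replicate numbers were 0.47, 0.38 and 0.41. It passed with the block (log2 fold change 0.42, SE 0.0609, adjusted p = 0.0184) and not without it (adjusted p = 0.657). With the block and without any one replicate number, its adjusted p was 0.0647 to 0.0748. Slc38a1, a glutamine importer, stood at 2.29, 2.08 and 1.84 RPKM in the controls and at 3.31, 2.59 and 3.31 RPKM under the Nf2 KO label, without overlap of the lines. Its log2 fold change of 0.40 had an adjusted p of 0.259 without the block and of 0.0642 with it.

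Slc38a2, the glutamine carrier SNAT2 known to rise in amino acid starvation, stood at 30.7, 27.7 and 26.0 RPKM in the controls and at 27.8, 24.0 and 27.8 RPKM under the Nf2 KO label. The lines overlapped, with a log2 fold change of -0.0841 (SE 0.107, 95% interval -0.34 to 0.17, adjusted p = 0.948). Slc38a10, whose substrates are less well known, stood at 23.6, 21.6 and 24.8 RPKM and 22.0, 18.7 and 25.0 RPKM, with a log2 fold change of -0.0941 (SE 0.125, 95% interval -0.39 to 0.21, adjusted p = 0.951). Slc38a7, a lysosomal glutamine carrier, and Slc38a6 had intervals of -0.33 to 0.66 and -0.37 to 0.40.

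Of the proton-coupled Slc36a carriers, Slc36a1 (chr11:55204350-55236330, plus strand), which lets small neutral amino acids out of lysosomes, stood at 9.33, 6.33 and 8.22 RPKM in the controls and at 7.50, 4.99 and 6.08 RPKM under the Nf2 KO label. The lines overlapped, while the log2 differences within replicate numbers were -0.28, -0.29 and -0.38. It passed with the block (log2 fold change -0.32, SE 0.0626, adjusted p = 0.041) and not without it (adjusted p = 0.702). Without any one replicate number the blocked adjusted p was 0.112 to 0.157. Slc36a4, a high-affinity carrier of proline and tryptophan, stood at 6.13, 5.91 and 6.07 RPKM and 8.08, 5.76 and 6.89 RPKM with an interval of -0.13 to 0.45. Slc43a3 (chr2:84936579-84958509, plus strand), named within an amino acid carrier family but known to carry purine nucleobases, stood at 13.1, 15.1 and 13.7 RPKM in the controls and at 19.3, 20.5 and 19.1 RPKM under the Nf2 KO label. The lines did not overlap, with means of 14.0 ± 1.01 and 19.7 ± 0.764 RPKM (SD, n = 3 each). Its log2 fold change of 0.46 (SE 0.0901, 95% interval 0.25 to 0.68) had an adjusted p of 0.0864 without the block and of 0.0149 with it. Without the block it passed when replicate 2 of both lines was left out (adjusted p = 0.0368). With the block and without any one replicate number the adjusted p was 0.0518 to 0.0591.

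**Figure D3:**
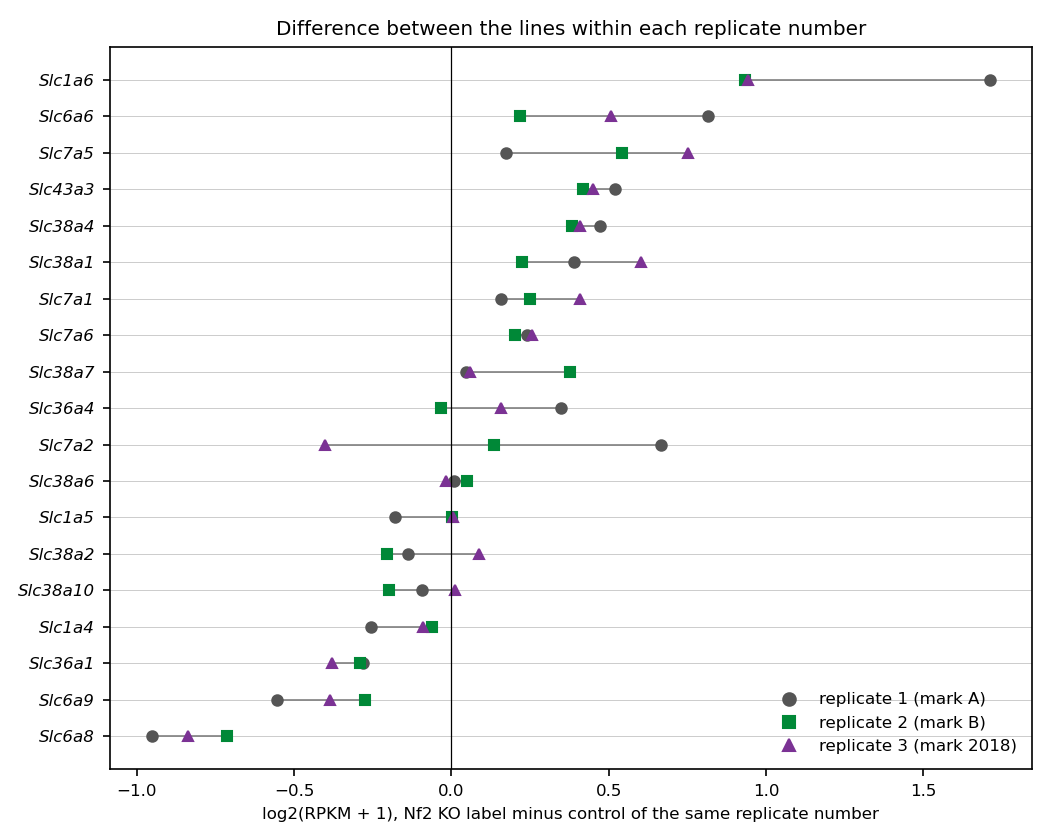
Difference of log2(RPKM + 1) between the library labelled Nf2 KO and the control of the same replicate number, with 3 points for each of the 19 tested transporters. The 3 points of Slc43a3, Slc38a4, Slc36a1 and Slc7a6 lie close together on one side of 0, while those of Slc1a6 run from 0.93 to 1.71 and those of Slc7a2 lie on both sides.

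Under the filter, 12 transporters reached 0.1 RPKM in some library. Of these, 9 had a mean of at least 0.1 RPKM over all 6 libraries. The lines did not overlap for 3 of the 9, Slc6a17, Slc6a15 and Slc7a3, against 15.7% of the 4333 genes of that kind. Slc6a15, with a mean of 0.0804 RPKM under the Nf2 KO label, met this limit through the controls alone. The count of 3 thus holds a gene that had to be lower. An exact permutation test of 3 against 3 libraries cannot give a p under 0.1, so none of these genes could pass it. In the limma fit without a filter, 0 of the 47 transporters passed for the line. Slc6a17, a synaptic vesicle carrier of neutral amino acids, stood at 1.13, 1.52 and 0.966 RPKM in the controls and at 0.323, 0.464 and 0.275 RPKM under the Nf2 KO label, a 3.40-fold lower mean. Slc6a15, a neuronal carrier of branched-chain amino acids and proline, stood at 0.613, 0.537 and 0.925 RPKM and 0.0856, 0.0602 and 0.0953 RPKM, an 8.61-fold lower mean that rests on an inferred 9 to 437 reads a library. Both were lower in every library labelled Nf2 KO than in any control, and Slc6a15 reached 0.1 RPKM in the controls alone. Slc7a3, an arginine carrier, stood at 0.393, 0.376 and 0.311 RPKM and 0.205, 0.0685 and 0.231 RPKM. Slc7a8, the light chain LAT2, and Slc6a3, the dopamine carrier, also reached 0.1 RPKM in a single line, with a mean under it over all libraries, so their values are a description, at 0.148, 0.179 and 0.0816 RPKM against 0.0663, 0 and 0.0301 RPKM for Slc7a8 and at 0.0645, 0.0458 and 0.0378 RPKM against 0.112, 0.120 and 0.111 RPKM for Slc6a3, the latter on an inferred 3 to 28 reads a library. The lines overlapped for the other 7 of the 12, which were Slc1a3 (0.480 to 1.27 RPKM), Slc38a9 (0.467 to 0.645 RPKM), Slc43a2 (0.273 to 0.488 RPKM), Slc7a4 (0.0635 to 0.429 RPKM), Slc43a1 (0.0553 to 0.431 RPKM), Slc1a2 (0.0354 to 0.156 RPKM) and Slc7a7 (0.0896 to 0.173 RPKM). Slc1a2 reached 0.1 RPKM in Nf2 KO replicate 1 alone. Slc38a9 encodes the arginine sensor of the lysosome. The remaining 16 stayed under 0.1 RPKM in every library, among them Slc1a1, Slc1a7, Slc36a2, Slc38a3, Slc38a8, Slc6a14, Slc6a19, Slc6a4 and Slc7a15.

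**Figure D4:**
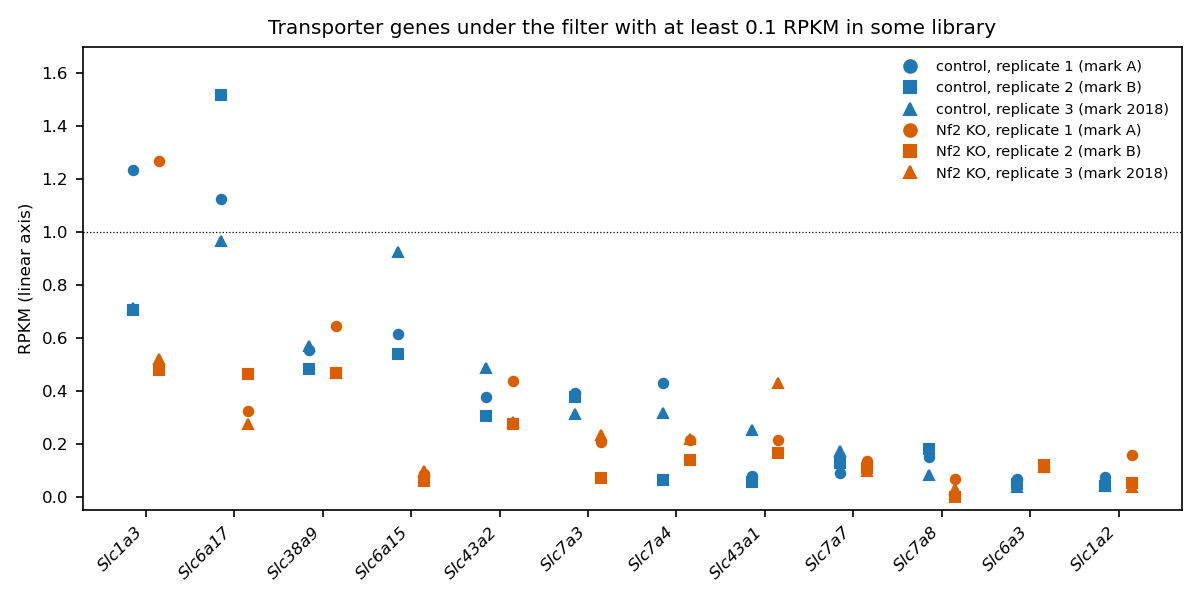
RPKM on a linear axis of the 12 transporters under the filter with at least 0.1 RPKM in some library, colored by line and shaped by replicate number, with a dotted line at 1 RPKM. The 3 control libraries of Slc6a17 and Slc6a15 lie at 0.966 to 1.52 and 0.537 to 0.925 RPKM, above the 3 libraries labelled Nf2 KO.

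The replicate 2 libraries of both lines, which carry the mark B, were compared with the other 4 libraries with the line as a term. In replicate 2, 8 of 19 transporters passed, against 30.6% of all genes tested (3386 genes). The arginine carrier Slc7a1 and the leucine carrier Slc7a5 were higher (2 of 19, against 10.8% of all genes). Slc6a9, Slc7a2, Slc38a4, Slc38a7, Slc36a1 and Slc38a6 were lower (6 of 19, against 19.8% of all genes). Slc38a6 met the 1 RPKM filter through replicates 1 and 3 alone, so the count of 6 holds a gene that had to be lower. This comparison uses the same libraries as the comparison of the lines. The median log2 fold change was -0.13 over the 19 transporters and -0.078 over all genes tested. The transporter median was -0.26 without control replicate 2, -0.040 without Nf2 KO replicate 2 and -0.063 after median centring. After quantile normalization, 1553 genes were higher and 1412 lower in replicate 2, against 1195 higher and 2191 lower as deposited, and 6 transporters passed, 2 higher and 4 lower, without Slc38a6 and Slc38a7. Median centring gave 1698 genes higher and 1536 lower, and the same 2 transporters did not pass. In the replicate 2 libraries fibroblast collagen genes were also lower, with Col3a1 at 15.3 and 6.95 RPKM against 29.8 to 82.1 RPKM in the other 4 libraries, and 5 of 9 fibroblast markers passed, all as lower (4 lower and 1 higher after quantile normalization, 5 lower and 1 higher after median centring). Among markers of other cells, the endothelial receptor gene Kdr was at 3.75 and 4.39 RPKM against 1.32 to 1.74 RPKM. The other 3 endothelial markers stayed under 1 RPKM in every library, with Pecam1 lower in replicate 2 and with overlap for Cdh5 and Tek. The muscle actin gene Acta1 was at 6.25 and 2.57 RPKM against 0.252 to 0.606 RPKM, while the other 4 muscle markers in the table, Myog, Myh3, Ckm and Des, stayed under 1 RPKM and overlapped between the sets of libraries. The part of these in the transporter values was not tested.

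Slc7a1 (chr5:148327410-148399904, minus strand), the arginine and lysine carrier CAT1, stood at 10.2 and 12.3 RPKM in control and Nf2 KO replicate 2 and at 6.11 to 8.44 RPKM in the other 4 libraries. The sets of libraries did not overlap, and the log2 fold change was 0.58 (SE 0.0786, 95% interval 0.40 to 0.76, adjusted p = 0.00341). It passed in all 16 alternatives, at adjusted p = 0.00234 to 0.0453. Slc7a5 stood at 48.0 and 70.4 RPKM in replicate 2 and at 32.7 to 55.7 RPKM in the others. Nf2 KO replicate 3 lay above control replicate 2, so the sets overlapped, with a log2 fold change of 0.55 (SE 0.139, adjusted p = 0.0251). Leaving out control replicate 1, 2 or 3 or Nf2 KO replicate 2 ended this call (adjusted p = 0.0523, 0.140, 0.0637 and 0.191). Slc3a2 stood at 44.0 and 47.9 RPKM against 34.0 to 44.7 RPKM (log2 fold change 0.29, adjusted p = 0.0542), and passed in 5 of 16 alternatives.

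Of the genes that were lower, Slc6a9 stood at 2.14 and 1.59 RPKM in control and Nf2 KO replicate 2 and at 3.70 to 7.31 RPKM in the other 4 libraries. The sets did not overlap, with a log2 fold change of -1.09 (SE 0.144, 95% interval -1.43 to -0.75, adjusted p = 0.00334), and it passed in all 15 alternatives. Of its neighbors on the opposite strand, Ccdc24 stood at 0.205 and 0.158 RPKM against 0.113 to 0.390 RPKM and B4galt2 at 9.80 and 8.41 RPKM against 7.82 to 9.66 RPKM, both with overlap. Slc7a2, an arginine carrier like Slc7a1, was lower where Slc7a1 was higher, at 1.15 and 1.36 RPKM against 2.25 to 4.51 RPKM (log2 fold change -0.84, SE 0.209, adjusted p = 0.0247). Its call ended without control replicate 2, control replicate 3 or Nf2 KO replicate 2, at adjusted p = 0.163, 0.0672 and 0.169. Slc38a4 stood at 5.69 and 7.74 RPKM against 8.25 to 12.4 RPKM, without overlap (log2 fold change -0.56, SE 0.0742, adjusted p = 0.00331). It passed in 14 of 16 alternatives. Its adjusted p was 0.0501 without Nf2 KO replicate 2 and 0.0837 without the line term, a setting that also ended the calls of Slc7a5, Slc36a1 and Slc38a7.

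The lysosomal carriers Slc36a1 and Slc38a7 were both lower in replicate 2. Slc36a1 stood at 6.33 and 4.99 RPKM against 6.08 to 9.33 RPKM, with overlap (log2 fold change -0.39, SE 0.0984, adjusted p = 0.0235). Slc38a7 stood at 3.73 and 5.14 RPKM against 5.45 to 7.18 RPKM (log2 fold change -0.43, SE 0.131, adjusted p = 0.0433). Both calls depended on single libraries. The Slc36a1 call ended without control replicate 1, control replicate 2 or Nf2 KO replicate 2 (adjusted p = 0.0534, 0.173 and 0.146). That of Slc38a7 ended without any single library other than Nf2 KO replicate 3 (adjusted p = 0.0638 to 0.370). Slc38a6 stood at 0.766 and 0.826 RPKM against 1.21 to 1.35 RPKM. Slc38a6 passed the filter only where it was high. With genes filtered on their mean over all 6 libraries, its log2 fold change was -0.34 (limma adjusted p = 0.0349). Its mean of 1.12 RPKM meets that filter through the same libraries, at 0.796 RPKM in replicate 2 and 1.28 RPKM in the others. The second filter therefore adds no support. With the filter as designed, the call ended without any single library other than Nf2 KO replicate 3 (adjusted p = 0.0615 to 0.241). Of its 31-base stretches, 40.7% are shared with other genes, most with Noct, which stood at 15.2 and 15.3 RPKM in replicate 2 and at 3.95 to 5.37 RPKM in the others, so how reads were split between them is uncertain.

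The transporters that did not pass in replicate 2 included the glutamine carriers Slc38a2 and Slc1a5. Slc38a2 had a 95% interval of -0.33 to 0.10 and Slc1a5 of -0.15 to 0.22. For the carriers that led the comparison of the lines, the log2 fold change in replicate 2 was 0.0152 for Slc6a8 (interval -0.29 to 0.33) and 0.24 for Slc1a6 (interval -0.49 to 0.98). The Slc1a6 value turned to -0.13 without replicate 1 of both lines. The difference between the lines in the replicate 2 effect, tested as an interaction, passed for 0% of all genes (0 of 11067) and for none of the 19 transporters, with 313 genes and none of the transporters at an unadjusted p under 0.05. Intervals of this difference were wide, for example -0.64 to 0.80 for Slc7a5 and -2.13 to 1.34 for Slc1a6, so that a difference between the lines of that size was not detectable with these libraries.

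Genes that work with these carriers were read from 7 lists. For the line without the block, limma called 0 of the 102 genes of the 7 lists that were tested, with 5 at an unadjusted p under 0.05, and 1 gene, Rragb, passed after quantile normalization and after median centring. With the block, 3 of 24 genes of the amino acid starvation response passed, 1 higher and 2 lower, beside 7.53% of all genes, with Atf5, a transcription factor of that response, at 43.8, 24.7 and 40.2 RPKM in the controls and 23.5, 12.2 and 29.6 RPKM under the Nf2 KO label (log2 fold change -0.75, adjusted p = 0.0223). Cebpb, a further transcription factor, was also lower (-0.49, adjusted p = 0.0221) and Eif2ak4, which encodes the uncharged tRNA sensor GCN2, was higher (0.33, adjusted p = 0.0447). Of 27 genes of amino acid sensing by mTORC1, 2 passed, both lower, a share near the 7.53% of all genes called (4.54% lower). They were Rragb, a Rag GTPase, at 4.24, 3.64 and 3.64 RPKM and 2.25, 1.58 and 2.04 RPKM (log2 fold change -0.72, adjusted p = 0.00922) and Lamtor4, a subunit of its lysosomal anchor, at a log2 fold change of -0.36 (adjusted p = 0.035). None of 2 partners of the carriers, 13 other amino acid, creatine and pyruvate carriers, 13 enzymes of glutamine and glutamate, 3 genes of creatine synthesis and use and 20 tRNA synthetases passed for the line, while 1 of the enzyme genes, Dbt, passed with the block after quantile normalization. The list medians lay between -0.083 and 0.043 on the log2 scale.

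In replicate 2, 11 of 24 starvation response genes passed, against 30.6% of all genes, 2 higher and 9 lower, with a list median of -0.16. After median centring it was 4 higher and 8 lower, with a median of -0.093. Ddit4, an inhibitor of mTORC1, stood at 34.9 and 41.7 RPKM in replicate 2 and at 77.6 to 106 RPKM in the others (log2 fold change -1.25, adjusted p = 0.0027). Trib3 (-0.92), Atf5 (-0.90) and Ddit3 (-0.74) were also lower. Atf4 itself was not lower, at 121 and 107 RPKM in replicate 2 and at 83.8 to 102 RPKM in the others. Ppp1r15a, which encodes the eIF2 phosphatase subunit GADD34, was higher, at 17.0 and 14.9 RPKM against 6.74 to 7.96 RPKM (log2 fold change 1.04, adjusted p = 0.00105), as was Atf3 (0.79). Of the 27 mTORC1 sensing genes, 14 passed, all lower, against 19.8% of all genes called lower, with a list median of -0.23. After quantile normalization and after median centring, which turn the balance of all genes, 11 of the 27 passed, again all lower, with medians of -0.14 and -0.16. The 14 included the leucine sensor relatives Sesn3 (-0.82) and Sesn1 (-0.71), the arginine sensor relative Castor2 (-0.58), Flcn (-0.60), and the anchor subunits Lamtor4 (-0.57) and Lamtor2 (-0.46).

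The enzymes of glutamine and glutamate split, with 6 of 13 past the threshold in replicate 2 and a median of -0.14, which was -0.029 after quantile normalization and -0.069 after median centring, with 5 past the threshold in each. Glutamine synthetase Glul (0.56) and glutamate dehydrogenase Glud1 (0.34) were among those that were higher. The transaminases Gpt2 (-0.87) and Bcat2 (-0.74) and the branched-chain dehydrogenase gene Bckdha (-0.37) were lower. For creatine, 2 of 3 genes were lower, Gamt, which makes creatine, at 1.75 and 2.01 RPKM against 4.59 to 7.54 RPKM (log2 fold change -1.24, adjusted p = 0.00256), and Ckb, which encodes creatine kinase B (-0.81, adjusted p = 0.0125). Of 20 tRNA synthetases 4 passed, Rars (0.40) higher and Aars (-0.41), Eprs (-0.32) and Cars (-0.31) lower, with a median of 0.028. After median centring 3 passed as higher and 2 as lower, with a median of 0.10. Of the 13 other carriers 4 passed, the aromatic amino acid carrier Slc16a10 (0.37) higher and the lysosomal cystine exporter Ctns (-0.75), the mitochondrial carrier Slc25a29 (-0.40) and the pyruvate carrier subunit Mpc1 (-0.32) lower, with a median of -0.051 that turned to 0.041 and 0.021 after quantile normalization and median centring. After quantile normalization 2 passed as higher and 1 as lower, and after median centring 2 as higher and 2 as lower. Slc25a29 met the filter through replicates 1 and 3 alone. Of the 2 partners, Arl6ip5, which binds the glutamate carrier Slc1a1, was higher, at 105 and 106 RPKM against 57.4 to 84.0 RPKM. These counts stand beside 30.6% of all genes tested, 10.8% higher and 19.8% lower.

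**Figure D5:**
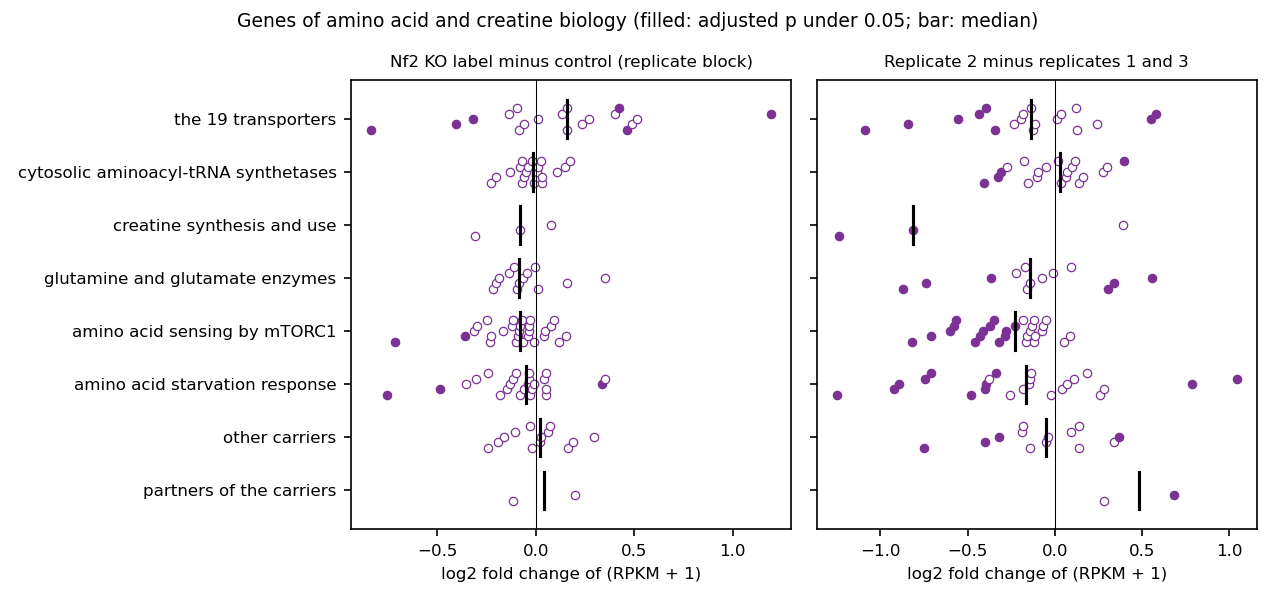
Log2 fold changes of RPKM + 1 for the tested genes of the 7 lists and for the 19 transporters, on the left for the Nf2 KO label minus control with the replicate block and on the right for replicate 2 minus replicates 1 and 3. Filled points have an adjusted p under 0.05 and bars mark medians, and in replicate 2 all 14 filled points of the mTORC1 sensing list lie below 0.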

How the data were processed

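RNA of 6 libraries, 3 of each line, was prepared, sequenced and analyzed by GENEWIZ. The authors deposited a single table of normalized values without naming the unit. Genome build mm10 is named in the submitters' processing notes, while the aligner, the counter and the use of strand are not given in the sources used here. The deposited values were taken as RPKM, because multiplying them by exon lengths of GENCODE vM21 (GRCm38) gave whole numbers of reads, within 0.05 of a read, for 85.4% to 87.9% of the values at or under 10 reads, against 10% by chance. That step gives the inferred depths, and low genes with few reads are the least precise.

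Values were set to log2(RPKM + 1), so fold changes of low genes are understated. All 11067 genes that reached 1 RPKM in 3 or more libraries entered a limma 3.58.1 model (R 4.3.3) whose variances were moderated by eBayes, with its trend and robust options on. Tests were two-sided, p-values were adjusted by the Benjamini-Hochberg method over these genes, and the threshold was 0.05. The line was tested without a covariate, replicate 2 with the line as a term, and their interaction. Replicate numbers come from the sample titles, and same-numbered libraries deviated together (r = 0.552, 0.819 and 0.516 across genes, against -0.681 to 0.493 for other pairs, of which replicates 1 and 3 gave 0.322 and 0.493), so values with the replicate number as a block are given beside those without it. The fits were also run on simulated data with independent errors and changes larger than most of those given here. The outcome is not reported here, so this is no check of the calls. The single values of low genes were compared with an exact permutation test, two-sided (scipy 1.17.1). Coordinates and exon overlaps are from GENCODE vM21, promoters from RefSeq (GRCm38.p6). Figures were drawn with matplotlib 3.10.9.

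The transporters, lists and markers were chosen with earlier results of these data known. Nf2 was named first, every tested transporter was named by level, and full statistics went to those past the threshold, the 6 highest, the 4 with the largest change in each comparison, and Slc6a8, Slc7a5, Slc1a5, Slc38a2 and Slc3a2. At most 6 genes of a list were named per comparison, by size of change, and some single genes of the families and lists are not reported here. Alternatives were another pseudocount (0.1), filter (none, 5 RPKM, or the mean over all libraries), normalization, eBayes setting, covariate or block, and leaving out libraries.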

Additional observations from a re-analysis of the deposited data

How the results depend on the processing

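For the line, 1 transporter and 117 genes passed as designed. Without a filter 0 and 9 passed, with the 5 RPKM filter 0 and 63, with a filter on the mean over all libraries, chosen after seeing the data, 0 and 108, and with the replicate block 6 and 833, while the 2018 mark as a covariate left 62 genes. Leaving out libraries or replicate numbers gave 0 to 3 transporters and 0 to 484 genes. With the replicate block, combinations chosen after seeing the data gave 0 transporters and 2 genes without a filter, 541 genes with the 5 RPKM filter, and 1 to 3 transporters and 320 to 454 genes with a replicate number left out. For replicate 2, 8 transporters and 3386 genes became 3 and 884 without a filter, 5 transporters with the 5 RPKM filter and 4 and 1976 without the line term, and leaving out libraries gave 2 to 8 transporters and 699 to 3375 genes. The sign turned under an alternative for 5 of 19 transporters in the line, 3 with the block and 5 in replicate 2, none of them past the threshold as designed. Over left-out libraries the line value was -0.097 to 0.0037 for Slc1a5, -0.19 to 0.010 for Slc38a10, -0.11 to 0.12 for Slc38a6, -0.038 to 0.33 for Slc38a7 and -0.20 to 0.41 for Slc7a2. The replicate 2 value was -0.13 to 0.62 for Slc1a6 (-0.029 without control replicate 1), -0.010 to 0.078 for Slc1a5 and -0.15 to 0.18 for Slc6a8. The block changed no call of a transporter other than those given. No filter and left-out libraries change the genes or samples in the fit, and the cause of the other changes was not tested. The depth limits genes under 0.1 RPKM, which rest on few reads, and the 6 libraries limit the interaction.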
